A study of Homo sapiens with 6 samples.

Results

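Aminoacyl-tRNA synthetases attach each amino acid to its transfer RNA, and human cells keep separate nuclear-encoded sets for the cytosol and for mitochondria. The 35 synthetase genes described here were chosen by symbol. Of these, 19 encode cytosolic enzymes (*EPRS1*, *FARSA*, *FARSB* and symbols ending in 1) and 16 encode mitochondrial enzymes (symbols ending in 2). *GARS1* and *KARS1* are counted as cytosolic, although the products of these genes are known to serve mitochondria too. All 35 were found among the 46427 genes of the count table, and all 35 passed the expression filter that left 18366 genes for testing. The least covered member, *FARS2*, had at least 374 reads in every library.

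RNA was sequenced from HCT116, an established human colon carcinoma line, as 3 libraries of the parental wild-type cells (*ZK3*-WT) and 3 libraries of cells in which CRISPR/Cas9 had removed the *ZKSCAN3* start codon in its first exon (*ZK3*-KO). *ZKSCAN3* encodes a zinc finger transcription factor, and no other treatment separates the groups. Knockout cells were drug-selected and grown from a single cell, so the effects of the genotype and of that clone cannot be told apart. In such bulk RNA, fewer cells of a state and less RNA per cell cannot be told apart either.

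Cytosolic synthetases are class I or class II enzymes by the fold of the catalytic domain, and several of them sit in the multi-synthetase complex held together by scaffold proteins. When amino acids run short, uncharged tRNA activates the kinase GCN2, translation of the transcription factor ATF4 increases, and ATF4 activates genes of amino acid synthesis, amino acid import and many cytosolic synthetases. Mitochondrial synthetases are made in the cytosol, imported, and charge the tRNAs that translate the respiratory chain subunits encoded by mitochondrial DNA. In the following, 12 cytosolic synthetase genes known as targets of ATF4 (*AARS1*, *CARS1*, *EPRS1*, *GARS1*, *IARS1*, *LARS1*, *MARS1*, *NARS1*, *SARS1*, *TARS1*, *WARS1* and *YARS1*) are set apart from the other 7 (*FARSA*, *FARSB*, *HARS1*, *KARS1*, *QARS1*, *RARS1* and *VARS1*).

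Because 12 of these genes are known for ATF4 control, their promoters were searched for the C/EBP-ATF response element, the composite site that ATF4 binds, spelled TGATGNAA or, on the other strand, TTNCATCA. RefSeq promoter windows (GRCh38.p14, 250 bases before to 50 bases after the annotated start site) were matched for 30 of the 35 genes. No window was matched for *LARS1*, *VARS1*, *YARS1*, *AARS2* and *VARS2*. The letters were present in 3.62% of all 35116 windows and in at least 1 window of 4.46% of genes. Among the members they were present in 7 of 16 cytosolic genes, all 7 among the 10 ATF4 targets with a window, and in 1 of 14 mitochondrial genes. The matches are shown as 30-base pieces read 5′ to 3′ on the strand of the gene, with the matching letters in capitals, and the ratios between libraries of genes with and without these letters are given afterwards.
AARS1 (chr16:70289675-70289704, minus strand): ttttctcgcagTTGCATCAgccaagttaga
CARS1 (chr11:3057407-3057436, minus strand): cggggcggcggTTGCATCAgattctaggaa
GARS1 (chr7:30594834-30594863, plus strand): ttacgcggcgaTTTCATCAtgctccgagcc
IARS1 (chr9:92293692-92293721, minus strand): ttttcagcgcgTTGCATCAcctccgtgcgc
MARS1 (chr12:57488053-57488082, plus strand): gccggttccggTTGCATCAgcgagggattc
NARS1 (chr18:57621804-57621833, minus strand): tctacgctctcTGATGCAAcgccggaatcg
TARS1 (chr5:33440956-33440985, plus strand): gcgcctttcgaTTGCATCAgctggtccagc
YARS2 (chr12:32756076-32756105, minus strand): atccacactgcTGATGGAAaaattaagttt
*WARS1* is also known as an interferon-induced gene, and its window held the letters of the interferon-stimulated response element, searched on both strands and present in 3.57% of all windows. *EARS2* was the only other member with these letters.
WARS1 (chr14:100375383-100375412, minus strand): tttcagaaggGAAACTGAAAgaaagagggg
A match in letters describes the sequence and is not a measured binding site.

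The libraries held between 60827060 and 69739215 counted reads. *ZK3*-KO replicate 3 stood apart, with correlations of log2 values across genes of 0.973 and 0.961 with the other *ZK3*-KO libraries, against 0.991 to 0.995 for other pairs within a genotype. Its correlations with *ZK3*-WT replicates 1, 2 and 3 were 0.968, 0.968 and 0.978, the last above both values within its own genotype. Its values also depend on the scale. CPM, reads scaled to a common library total and corrected by TMM factors, put the median of all tested genes in this library at 0.01 against the *ZK3*-WT mean on the log2 scale, whereas the deposited TPM, which are also divided by transcript length, put it at -0.32. For the genes named here, edgeR calls that changed when this library was left out are given with and without it. The 7 epithelial markers summed to between 3768 and 4828 TPM in *ZK3*-WT and between 3463 and 5612 TPM in *ZK3*-KO. Of these 7, however, *CDX1* was listed at 0 and *VIL1* reached at most 0.029 TPM in a library. No immune or endothelial marker of the 9 searched reached 1 TPM. Of 5 fibroblast markers 4 stayed under 1 TPM, and *COL1A1*, with 11.9 TPM in *ZK3*-KO replicate 2 and 29.1 TPM in *ZK3*-KO replicate 3, had its lowest and highest values in these libraries, while its part in the results was not tested. *ZKSCAN3* itself had 28.1, 23.4 and 19.8 CPM in the *ZK3*-WT libraries and 25.4, 24.9 and 13.6 CPM in the *ZK3*-KO libraries, which did not separate the genotypes (log2 fold change -0.16 ± 0.27 (SE), FDR 0.80). A deletion of the start codon need not lower the count, so this is a weak check of the labels.

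Levels of different genes were compared per transcript length, in TPM. The cytosolic synthetases were the more abundant set. In *ZK3*-WT, *GARS1* (glycine) had the highest mean level at 370 ± 64.5 TPM (SD, n = 3). It was followed by *AARS1* (alanine) at 363 ± 76.3 TPM and *SARS1* (serine) at 343 ± 61.0 TPM. All 3 genes rose from *ZK3*-WT replicate 1 to 3. Within each *ZK3*-WT library *SARS1* lay below both others, whereas *AARS1* lay above *GARS1* in replicate 3 only. The lowest cytosolic level was 63.9 ± 11.3 TPM for *FARSB*, the beta subunit of phenylalanyl-tRNA synthetase. Only *IARS2*, the mitochondrial isoleucine enzyme, reached into the cytosolic range, at 103 ± 12.1 TPM and place 15 of the 35. The other mitochondrial genes lay between 40.4 ± 1.41 TPM for *HARS2* (histidine) and 7.61 ± 0.456 TPM for *FARS2* (phenylalanine). Near the foot of the order, *AARS2* (9.36 ± 0.932 TPM), *WARS2* (9.26 ± 1.5 TPM) and *PARS2* (9.21 ± 0.836 TPM), could not be ranked against each other.

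**Figure D1:**
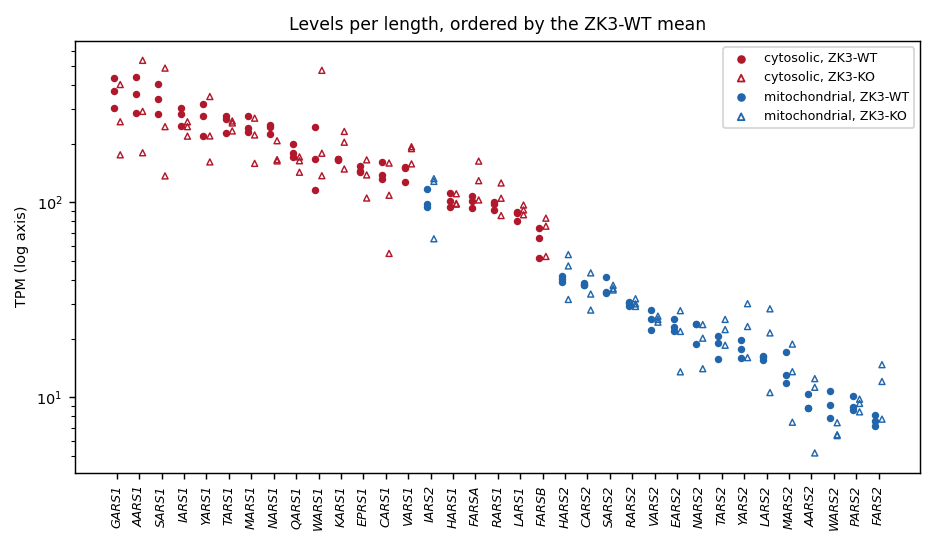
Deposited TPM (log axis) of the 35 synthetase genes in each of the 6 libraries, ordered by the mean of the 3 *ZK3*-WT libraries, with filled circles for *ZK3*-WT and open triangles for *ZK3*-KO. Cytosolic genes (red) fill the upper range from 370 TPM for *GARS1* to 63.9 TPM for *FARSB*, and *IARS2* at 103 TPM is the only mitochondrial gene (blue) among them.

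Where 1 amino acid has a cytosolic and a mitochondrial enzyme among the members, the cytosolic gene had the higher TPM in every library for all 16 pairs, with *FARSA* and *FARSB* each set against *FARS2* and *EPRS1* against *EARS2*. The mean ratio in *ZK3*-WT ran from 2.55 ± 0.31 for *HARS1* to *HARS2* up to 39.5 ± 11.1 for *AARS1* to *AARS2*. *HARS1* and *HARS2* are neighbours on chromosome 5 on opposite strands, and in the GRCh37 annotation they overlap by 108 bases (*HARS1* chr5:140052620-140071122, *HARS2* chr5:140071015-140078890), so their counts would be partly shared if strand was not used in counting. The *AARS1* to *AARS2* ratio, which does not depend on the scaling of a library, was 27.7, 41.0 and 49.8 across the *ZK3*-WT libraries, in order of replicate number. Across the *ZK3*-KO libraries it was 26.0, 14.4 and 103. The lowest and the highest ratio were thus both found in *ZK3*-KO libraries. The same was true of *SARS1* to *SARS2*, with ratios of 8.17, 9.96 and 9.74 in *ZK3*-WT and of 6.51, 3.85 and 13.5 in *ZK3*-KO. The *RARS1* to *RARS2* ratio for arginine covered a narrower range, from 2.92 in *ZK3*-KO replicate 3 to 3.92 in *ZK3*-KO replicate 2, so that its extremes were in these libraries too but in the opposite order.

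No synthetase gene was called between the genotypes at an FDR of 0.05 by edgeR's quasi-likelihood test, where 2.05% of all tested genes were called, 0.817% as higher and 1.23% as lower in *ZK3*-KO. DESeq2 called 0 of the 35 as well, against 1224 of the same 18366 genes. At an unadjusted p under 0.05, 3 of the 35 members were found, all with higher values in *ZK3*-KO, while 18.4% of all genes met that limit and 8.89% met it with higher values. Log2 fold changes had a median of 0.08 over the cytosolic genes (11 above 0 and 8 below) and of 0.13 over the mitochondrial genes (13 above and 3 below), beside 0.02 over all genes tested.

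The 3 members with the lowest p-values were 2 cytosolic genes and 1 mitochondrial gene. *FARSA*, the catalytic alpha subunit of cytosolic phenylalanyl-tRNA synthetase, had 80.9, 85.0 and 92.9 CPM in the *ZK3*-WT libraries and 112, 142 and 111 CPM in the *ZK3*-KO libraries. In CPM every *ZK3*-KO library lay above every *ZK3*-WT library, and the log2 fold change was 0.50 ± 0.16 (SE, FDR 0.16). *FARSB*, which encodes the partner subunit, had 75.2, 107 and 108 CPM in the *ZK3*-WT libraries and 97.7, 127 and 102 CPM in the *ZK3*-KO libraries, and its groups overlapped (log2 fold change 0.17 ± 0.19, FDR 0.69). *FARS2*, the mitochondrial enzyme for the same amino acid, had 5.95, 6.91 and 6.21 CPM in the *ZK3*-WT libraries and 9.97, 12.1 and 7.95 CPM in the *ZK3*-KO libraries. Its groups did not overlap in CPM, and the log2 fold change was 0.66 ± 0.21 (FDR 0.17). *VARS1*, the cytosolic valine enzyme, had 294, 241 and 298 CPM in the *ZK3*-WT libraries and 370, 379 and 385 CPM in the *ZK3*-KO libraries. In CPM it was steady among the *ZK3*-KO libraries and higher in each of them, with a log2 fold change of 0.44 ± 0.15 (FDR 0.19). On the deposited TPM *VARS1* had 150, 128 and 152 in *ZK3*-WT and 189, 193 and 158 in *ZK3*-KO, so that replicate 3 lay lower there.

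On the CPM scale the groups did not overlap for 9 of the 35 members, a share close to the 26.6% of all tested genes (12.7% higher and 13.8% lower in *ZK3*-KO). The 7 genes with higher values in *ZK3*-KO were *FARSA*, *KARS1*, *RARS1*, *VARS1*, *FARS2*, *RARS2* and *YARS2*, and those with lower values were *NARS1* and *WARS2*. On the deposited TPM *ZK3*-KO replicate 3 lay lower for most genes. There only 1 cytosolic gene, *VARS1*, and 0 mitochondrial genes were higher without overlap, against 6.83% of all genes. In *ZK3*-KO replicate 3 *FARSA* had 103 TPM, against 107 in *ZK3*-WT replicate 3. *FARS2* had 7.73 TPM there, against 8.08 in *ZK3*-WT replicate 2. On TPM 2 cytosolic and 1 mitochondrial genes were lower without overlap, against 18.4% of all genes. *NARS1*, the cytosolic asparagine enzyme, had 296, 317 and 319 CPM in *ZK3*-WT and 273, 218 and 268 CPM in the *ZK3*-KO libraries (log2 fold change -0.30 ± 0.15, FDR 0.36). *WARS2*, the mitochondrial tryptophan enzyme, had 10.8, 14.1 and 12.3 CPM in *ZK3*-WT and 10.0, 8.70 and 10.6 CPM in the *ZK3*-KO libraries (-0.35 ± 0.18, FDR 0.36).

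**Figure D2:**
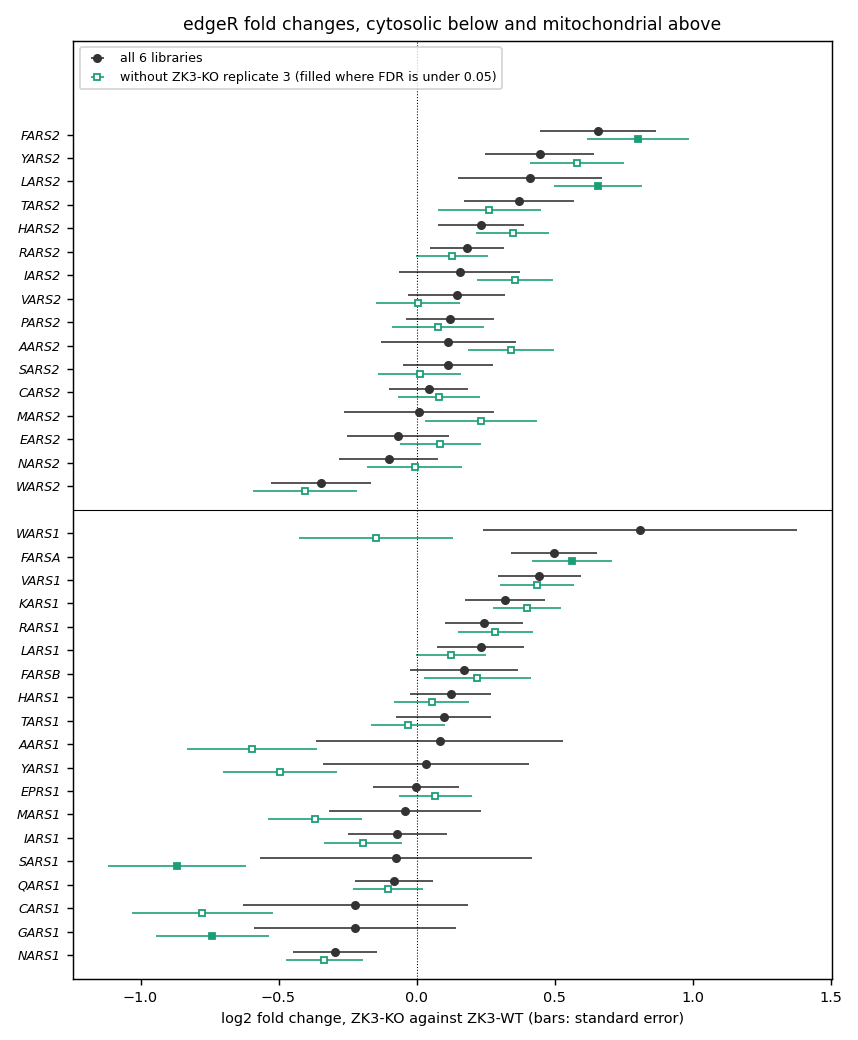
Log2 fold change of *ZK3*-KO against *ZK3*-WT for each synthetase gene from edgeR's quasi-likelihood test, with bars for the standard error, for all 6 libraries (black) and without *ZK3*-KO replicate 3 (green, filled where the FDR was under 0.05). With all libraries no gene passed, and without that library *FARSA*, *FARS2* and *LARS2* lay to the right of 0 and *GARS1* and *SARS1* to the left.

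Without *ZK3*-KO replicate 3, 5 of the 35 members were called by the same test, a share close to that of all genes, of which 15.1% were called, 7.41% as higher and 7.73% as lower. *FARS2* (log2 fold change 0.80 ± 0.18, FDR 0.023), *LARS2* (0.66 ± 0.16, FDR 0.027) and *FARSA* (0.56 ± 0.15, FDR 0.034) rose, and *SARS1* (-0.87 ± 0.25, FDR 0.048) and *GARS1* (-0.74 ± 0.20, FDR 0.042) fell. For some of these genes the left-out library lay on the other side of the *ZK3*-WT libraries. *LARS2*, the mitochondrial leucine enzyme, had 36, 35.1 and 34.4 CPM in the *ZK3*-WT libraries and 46.7, 63.6 and 29.8 CPM in the *ZK3*-KO libraries, so that replicates 1 and 2 lay above and replicate 3 below every *ZK3*-WT library. The median over the 12 ATF4 targets moved from -0.02 with all libraries to -0.35 without *ZK3*-KO replicate 3, with 10 of the 12 below 0, whereas that over the other 7 cytosolic genes moved from 0.24 to 0.29. The median over the mitochondrial genes was 0.18 without this library. Leaving out *ZK3*-KO replicate 2 instead turned the median over the ATF4 targets to 0.19. It was then 0.15 over the other cytosolic genes and 0.12 over the mitochondrial genes, and 0 of the 35 members were called.

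The largest differences among the *ZK3*-KO libraries were those of ATF4 targets. *SARS1* had 278, 327 and 402 CPM in the *ZK3*-WT libraries and 236, 131 and 588 CPM in the *ZK3*-KO libraries, a 4.48-fold difference between *ZK3*-KO replicates 3 and 2. *CARS1* (cysteine) had 169, 180 and 213 CPM in the *ZK3*-WT libraries and 145, 73.4 and 264 CPM in the *ZK3*-KO libraries, a 3.59-fold difference. For both genes the *ZK3*-WT libraries lay inside the range of the *ZK3*-KO libraries in CPM. *AARS1* had 476, 571 and 724 CPM in the *ZK3*-WT libraries and 482, 296 and 1097 CPM in the *ZK3*-KO libraries. *GARS1* had 374, 437 and 526 CPM in the *ZK3*-WT libraries and 318, 214 and 613 CPM in the *ZK3*-KO libraries. *YARS1* (tyrosine) had 277, 334 and 417 CPM in the *ZK3*-WT libraries and 284, 201 and 568 CPM in the *ZK3*-KO libraries. In CPM, *ZK3*-KO replicate 2 was the lowest and *ZK3*-KO replicate 3 the highest of the 6 libraries in each of these 3 genes. Replicate 1 lay near the lowest *ZK3*-WT library or below it. *MARS1* (methionine) and *IARS1* (isoleucine) had the same lowest and highest library, with ranges of 213 to 452 CPM and of 478 to 668 CPM. On the deposited TPM, *SARS1*, *AARS1* and *YARS1* kept these extremes. *GARS1* was instead highest in *ZK3*-WT replicate 3 (434 TPM, against 402 in *ZK3*-KO replicate 3), as were *CARS1* (161 against 159) and *MARS1* (278 against 270). For *IARS1*, *ZK3*-KO replicate 3 (245 TPM) lay below every *ZK3*-WT library.

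**Figure D3:**
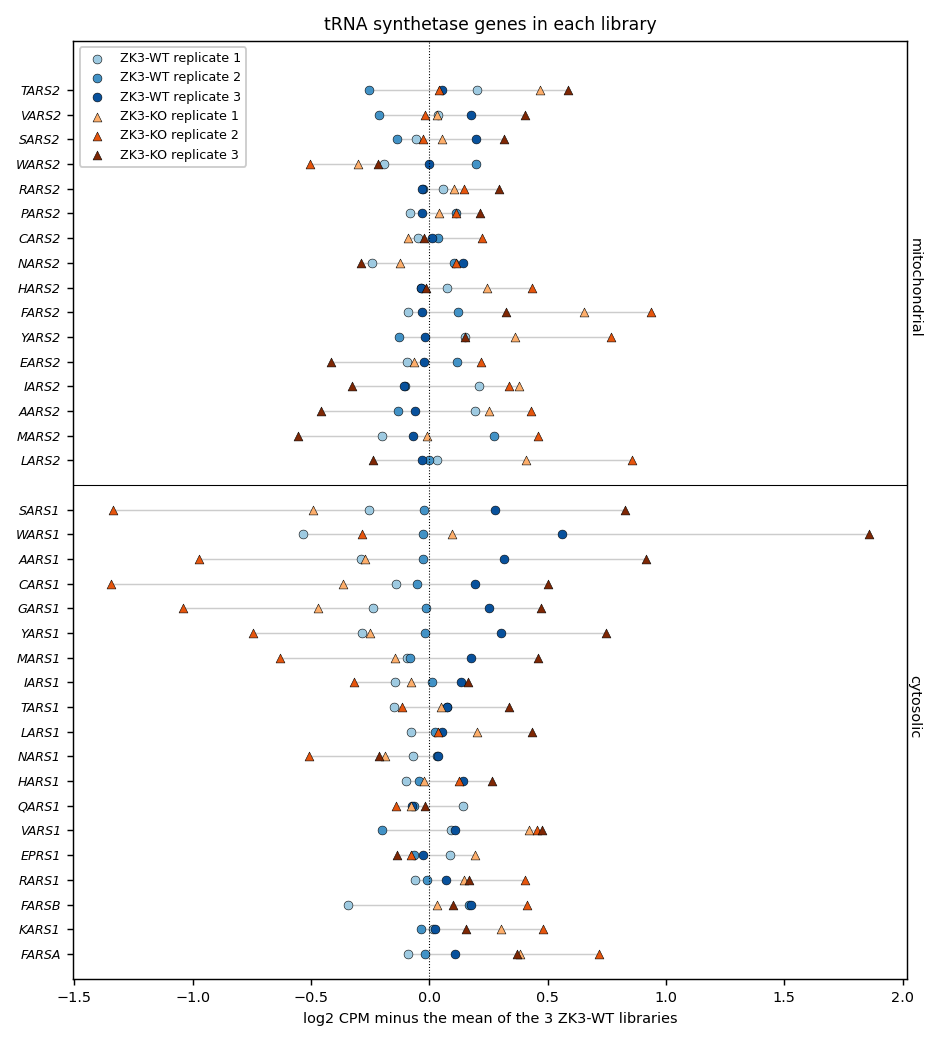
Log2 CPM of each synthetase gene in each of the 6 libraries minus the mean of its 3 *ZK3*-WT libraries, with circles for *ZK3*-WT and triangles for *ZK3*-KO. Cytosolic ATF4 targets such as *SARS1*, *AARS1* and *CARS1* span wide ranges between *ZK3*-KO replicates 2 and 3 (4.48-fold, 3.70-fold and 3.59-fold), while *FARSA* and *VARS1* have all *ZK3*-KO libraries on the right of 0.

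Among the mitochondrial genes, *IARS2* had 199, 160 and 160 CPM in the *ZK3*-WT libraries and 224, 217 and 137 CPM in the *ZK3*-KO libraries. *AARS2* had 23.4, 18.7 and 19.6 CPM in *ZK3*-WT and 24.4, 27.5 and 14.9 CPM in *ZK3*-KO. *MARS2*, whose product charges the initiator of mitochondrial translation, had 17.3, 24 and 18.9 CPM in *ZK3*-WT and 19.7, 27.3 and 13.5 CPM in *ZK3*-KO. In all 3 genes, on the CPM scale, *ZK3*-KO replicate 3 was the lowest of the 6 libraries and lay opposite to its place for *AARS1*, *IARS1* and *MARS1*, the cytosolic enzymes for the same amino acids. *TARS2* (threonine) differed from this, with 26.7, 19.4 and 24.1 CPM in *ZK3*-WT and 32.1, 23.9 and 34.8 CPM in *ZK3*-KO (log2 fold change 0.37 ± 0.20, FDR 0.38) and its highest value in *ZK3*-KO replicate 3. The flattest member was *QARS1* among the cytosolic genes, with a 1.21-fold difference between its highest and lowest library, and *PARS2* (proline) among the mitochondrial genes, with 1.22-fold.

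In all, 7 of the 19 cytosolic genes, all of them ATF4 targets, and 0 of the 16 mitochondrial genes were highest in *ZK3*-KO replicate 3 and lowest in *ZK3*-KO replicate 2 on the CPM scale, an order found in 10.8% of all tested genes. On the deposited TPM 3 cytosolic and 0 mitochondrial genes had this order, beside 6.07% of all genes. The reverse order, highest in *ZK3*-KO replicate 2 and lowest in replicate 3, was found in 9.5% of all genes and in *AARS2*, *EARS2*, *LARS2* and *MARS2*, all mitochondrial. On the deposited TPM it was found in 2 cytosolic and 7 mitochondrial genes, beside 15.1% of all genes. A difference of at least 2-fold among the *ZK3*-KO libraries was found in 7 of the 12 ATF4 targets, in 0 of the other 7 cytosolic genes and in 2 of the 16 mitochondrial genes, against 31.5% of all tested genes. On the deposited TPM these counts were 6, 0 and 5, against 36.4% of all genes. The median SD of log2 CPM within *ZK3*-KO was 0.653 for the ATF4 targets, 0.145 for the other cytosolic genes, 0.258 for the mitochondrial genes and 0.347 for all genes, and within *ZK3*-WT it was 0.163, 0.122, 0.155 and 0.205.

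The gap between sets of genes in the same library does not change with a factor applied to the whole library. For each library the median over the other cytosolic genes was subtracted from that over the ATF4 targets, both taken in log2 CPM against the *ZK3*-WT mean of each gene. The *ZK3*-WT libraries gave -0.09, 0.02 and 0.08. The *ZK3*-KO libraries gave -0.31, -0.98 and 0.30. With the deposited TPM the values in *ZK3*-KO were -0.44, -0.98 and 0.30. The knockout libraries thus lay on either side of the *ZK3*-WT libraries. For the 2 compartments as a whole, the cytosolic minus the mitochondrial median in log2 CPM was -0.09, -0.01 and 0.16 in *ZK3*-WT and -0.10, -0.36 and 0.39 in *ZK3*-KO, with means of 0.02 ± 0.13 and -0.03 ± 0.38 (SD, n = 3), a difference of -0.04 that was smaller than the spread among the libraries of either genotype.

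**Figure D4:**
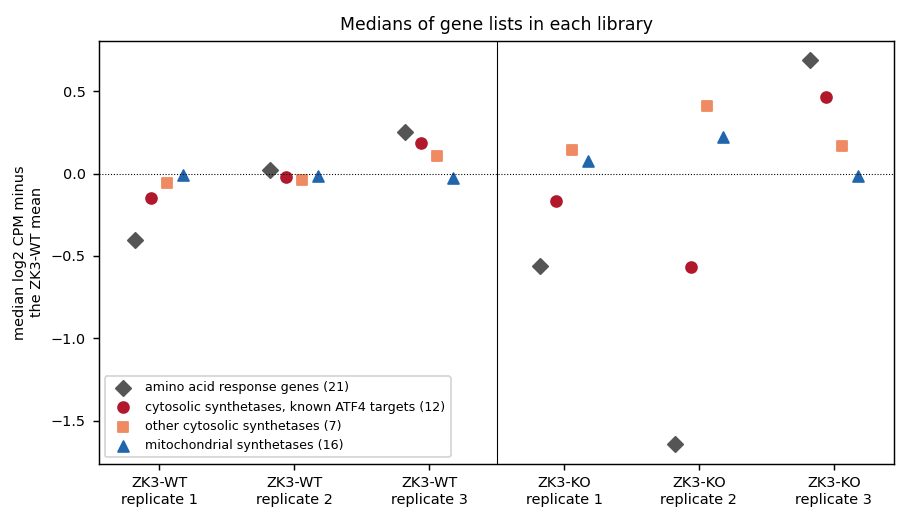
Median over each gene list of log2 CPM minus the *ZK3*-WT mean, in each of the 6 libraries. In *ZK3*-KO replicate 2 the amino acid response genes (-1.64) and the ATF4 target synthetases (-0.57) lie below the other cytosolic (0.41) and the mitochondrial synthetases (0.22), and in *ZK3*-KO replicate 3 they lie above them.

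Other genes known for the amino acid response were often highest and lowest in the same libraries. Of 21 tested, 15 were highest in *ZK3*-KO replicate 3 and lowest in *ZK3*-KO replicate 2 on the CPM scale, and 11 on the deposited TPM. On the scale of the plotted medians, the median over the 21 was -0.40, 0.02 and 0.25 for the *ZK3*-WT libraries and -0.56, -1.64 and 0.69 for the *ZK3*-KO libraries. *ATF4* had 594, 653 and 736 CPM in the *ZK3*-WT libraries and 575, 403 and 1063 CPM in the *ZK3*-KO libraries. *DDIT3*, which encodes the stress transcription factor CHOP, had 46.4, 106 and 124 CPM in the *ZK3*-WT libraries and 32.3, 6.33 and 237 CPM in the *ZK3*-KO libraries. *ZK3*-KO replicates 2 and 3 were thus the extremes for both genes. With all libraries, 0 of the 21 were called between the genotypes by edgeR or DESeq2, and at an unadjusted p under 0.05 *GCN1*, an activator of GCN2, was higher (log2 fold change 0.48 ± 0.19, FDR 0.24) and *SLC7A11*, the cystine transporter, was lower (-1.05 ± 0.39, FDR 0.22) in *ZK3*-KO. *STC2*, a secreted glycoprotein, had the next largest difference (-0.61 ± 0.66, FDR 0.68). Without *ZK3*-KO replicate 3, 7 of the 21 fell and 1 rose, where 7.73% of all genes were called lower and 7.41% higher. The gene that rose was *GCN1* (FDR 0.013), and *SLC7A11* (FDR 0.038), *STC2* (FDR 0.026) and *DDIT3* (FDR 0.045) were among those that fell. Without *ZK3*-KO replicate 2 instead, 0 of the 21 and 158 of 18912 tested genes were called. The median log2 fold change over the 21 was -1.06 without replicate 3 and 0.18 without replicate 2. *MARS1* and *DDIT3* share exon bases on opposite strands of chromosome 12, and the part of *DDIT3* reads in the *MARS1* count was not tested. Epithelial markers also differed between these libraries, with medians on this scale of -0.27, -0.27 and 0.61 for the *ZK3*-KO libraries, and their part in the synthetase values was not tested.

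The 7 cytosolic genes with the C/EBP-ATF letters had a median ratio of *ZK3*-KO replicate 3 to replicate 2 of 2.13 in CPM, from 1.23 for *NARS1* to 3.70 for *AARS1*. The 9 cytosolic genes with a window but without the letters had a median of 0.959, from 0.787 for *FARSA* to 4.48 for *SARS1*. The 7 genes are all ATF4 targets, whereas of the 9 only *EPRS1* (0.959), *WARS1* (4.41) and *SARS1* (4.48) are. The 2 sets thus differ in that list as well as in the letters, and the 2 cannot be told apart here. *SARS1* and *WARS1*, with the 2 largest ratios, were outside the set with the letters. *YARS2*, the mitochondrial tyrosine enzyme and the only mitochondrial gene with the letters, had 20.8, 17.1 and 18.5 CPM in the *ZK3*-WT libraries and 24, 31.9 and 20.8 CPM in the *ZK3*-KO libraries (log2 fold change 0.45 ± 0.20, FDR 0.29), so that its *ZK3*-KO replicate 3 was the lowest of that genotype.

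*WARS1*, the cytosolic tryptophan enzyme, had the largest fold change and the largest error of the 35. It had 146, 207 and 312 CPM in the *ZK3*-WT libraries and 226, 174 and 767 CPM in the *ZK3*-KO libraries. Replicate 3 lay far above the other libraries and the remaining values overlapped, with a log2 fold change of 0.81 ± 0.57 (FDR 0.50) and of -0.15 without *ZK3*-KO replicate 3. *WARS1* lies on chromosome 14 (GRCh37 chr14:100800127-100843142), where the log2 fold change of the 504 tested genes had a median of 0.51 with all libraries and of 0.48 without *ZK3*-KO replicate 3. Among 15 other interferon-induced genes, 13 were tested and 6 were called by edgeR, all lower in *ZK3*-KO, against 1.23% of all genes called lower. DESeq2 called 8 of the 13, against 1224 of the 18366 genes tested by edgeR. *IFI6*, an interferon-induced mitochondrial protein, had 36.2, 25.9 and 24.7 CPM in the *ZK3*-WT libraries and 4.92, 4.54 and 5.71 CPM in the *ZK3*-KO libraries, and it fell by 2.52 ± 0.21 on the log2 scale (FDR 0.0043). *IFIT2* (-2.89 ± 0.26), *IFIT3* (-2.02 ± 0.34) and *MX1* (-3.58 ± 0.41) fell as well, and *OAS1*, at 1.46 to 2.60 CPM in *ZK3*-WT and at 0, 0 and 0.0485 CPM in *ZK3*-KO, was also called. By edgeR with all libraries, *IFIT1*, *ISG15* and *IRF1* had an unadjusted p under 0.05 only, while DESeq2 called *IFIT1* (FDR 6.8e-05) and *ISG15* (FDR 0.0033). Without *ZK3*-KO replicate 3, 9 of the 13 were called by edgeR, all lower, where 7.73% of all genes were called lower. *IFIT1* (FDR 0.0088), *ISG15* (FDR 0.018) and *IRF1* (FDR 0.017) were among them. The interferon-induced genes did not share 1 order of libraries. Of the 13, 6 were lowest in *ZK3*-KO replicate 3, and only *IFI35* was highest there (16.5 CPM), as *WARS1* was. The median over the 13 in that library was -2.32 in log2 CPM against the *ZK3*-WT mean.

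Grouped by enzyme class or by complex, the members had medians near that of all genes. The median log2 fold change was 0.09 over the 18 class I genes and 0.12 over the 16 class II genes. With all libraries 0 of either class were called by edgeR or DESeq2. At an unadjusted p under 0.05 there were 1 class I and 2 class II genes, against 18.4% of all genes. Without *ZK3*-KO replicate 3, 1 class I gene was called higher, and 2 class II genes were called higher and 2 lower. In that setting 7.41% of all genes were called higher and 7.73% lower, and a difference between the classes was not tested. The 7 genes of the multi-synthetase complex had a median of -0.0015, from -0.08 for *QARS1* (glutamine) to 0.32 for *KARS1* (lysine). *KARS1* had 164, 158 and 165 CPM in the *ZK3*-WT libraries and 200, 226 and 181 CPM in the *ZK3*-KO libraries (0.32 ± 0.15, FDR 0.30). *EPRS1*, the fused glutamate and proline enzyme of this complex, had 357, 322 and 330 CPM in the *ZK3*-WT libraries and 384, 319 and 305 CPM in the *ZK3*-KO libraries, and neither set lay apart from the other. The scaffold genes *AIMP1* (-0.09), *AIMP2* (0.10) and *EEF1E1* (0.14) were not called either.

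Of the remaining genes of tRNA charging and its use, 0 were called with all libraries by edgeR or DESeq2. *GATB*, a subunit of the enzyme that forms mitochondrial glutaminyl-tRNA, was the only one of 8 genes of editing, export and formylation with an unadjusted p under 0.05 (0.69 ± 0.22, FDR 0.17), and without *ZK3*-KO replicate 3 it rose by 0.89 (FDR 0.0083). *XPOT*, the exporter of tRNA from the nucleus, had a log2 fold change of -0.54 ± 0.28 (FDR 0.36), and without that library it fell (-0.85, FDR 0.025). Of the elongation factors, 0 of 5 cytosolic and 0 of 4 mitochondrial genes were called, none of which had an unadjusted p under 0.05. The largest differences were those of *EEF1G* (0.31) and *EEF1D* (0.26) in the cytosolic set and of *TSFM* (0.43) and *TUFM* (0.35) in the mitochondrial set, of which *TSFM* rose by 0.58 without *ZK3*-KO replicate 3 (FDR 0.031).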

How the data were processed

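A single deposited table gave the unnormalized read count of every gene per library, beside FPKM and TPM values. The deposited FPKM values, scaled by the authors by transcript length and library size, were not used. The TPM values, scaled by the authors by transcript length to a nearly equal sum per library, were used for levels between genes and as an alternative. The submitters' processing notes name Bowtie2 2.2.5 and hg19 (GRCh37), and the methods name Partek Flow with an Ensembl annotation, whereas the table carries NCBI Gene numbers with RefSeq transcripts. Whether counting used the strand of the stranded libraries is not given in the sources used here.

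The comparison used edgeR 4.0.16 under R 4.3.3 (filterByExpr, TMM, quasi-likelihood test with genotype as the only factor) and adjusted by the Benjamini-Hochberg method over 18366 genes to an FDR, with a threshold of 0.05. This replaced the ANOVA on TPM of the study. TMM factors lay between 0.910 and 1.03. CPM are TMM-scaled, and errors of fold changes are standard errors. The scripts were tested on simulated data. DESeq2 1.42.0, limma 3.58.1 on log2(TPM + 1), library totals, upper-quartile factors, no filter, the replicate number as a block and each library left out were alternatives, and counts of library orders on TPM were added after seeing the data. The 35 members and the gene lists were chosen with earlier results of these data known. All members were to be named, with list genes past FDR 0.05 or an unadjusted p of 0.05 and the 2 largest changes per list. *ATF4*, *DDIT3*, *AIMP1*, *IFI35*, *COL1A1* and *VIL1* fall outside this rule and were named after their values were seen. The list of ATF4 targets came from general knowledge.

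Deviations from the genotype mean correlated across genes at 0.473, 0.124 and 0.616 for the libraries of replicate numbers 1, 2 and 3. Pairs with different numbers ranged from -0.573 to 0.289. The highest of these, *ZK3*-WT replicate 1 with *ZK3*-KO replicate 2, exceeded the matched pair of replicate 2. What the numbers mark is not stated. The labels only number the libraries, and the paper describes biological triplicates. Neither says how the cultures were separated, so p-values measure the spread between these libraries. Gene positions came from a GRCh37 annotation that held all 35 symbols. Chi-square values per degree of freedom of 41.5 to 543 between libraries of a genotype showed no copy of a library. Annotated pseudogenes of the members held at most 6 reads in a library. Some genes of the lists are not reported here.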

Additional observations from a re-analysis of the deposited data

How the results depend on the processing

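With 3 libraries per genotype, 1 library can set a value. The number of genes called was 376 by edgeR and 1269 by DESeq2, and it ranged from 49 to 2858 when 1 library was left out, the highest without *ZK3*-KO replicate 3. Of the calls with edgeR 150 of 376 were higher in *ZK3*-KO, with library totals 111 of 369, and with limma on log2(TPM + 1) 88 of 382. The median fold change of all genes was 0.02 on the log2 scale, and -0.08 on TPM, where the cytosolic median was -0.13 and the mitochondrial median 0.000351. The number of members called was 0 under every alternative that kept all libraries. With 1 library left out it ranged from 0 to 3 for cytosolic and from 0 to 2 for mitochondrial genes, with all of these calls made without *ZK3*-KO replicate 3. With the replicate block, which pairs libraries by number, 461 genes and 0 members were called, the cytosolic median was -0.00724 and the mitochondrial median 0.13, and the block changed no call of a member. Of the 35 members, 18 kept the sign of the fold change under all 12 alternatives and 17 did not, none of which was called with all libraries. Signs turned with library totals for *AARS1* (-0.031), *YARS1* (-0.074), *CARS2* (-0.037) and *MARS2* (-0.061), with upper-quartile factors for *MARS2* (-0.024), and with the block for *AARS1* (-0.11), *YARS1* (-0.081) and *MARS2* (-0.034). On TPM they turned for *AARS1* (-0.23), *HARS1* (-0.00362), *TARS1* (-0.036), *YARS1* (-0.22), *AARS2* (-0.036), *CARS2* (-0.13), *MARS2* (-0.14), *PARS2* (-0.00403) and *SARS2* (-0.012). With 1 library left out, the log2 fold change ranged from -0.60 to 0.42 for *AARS1*, -0.78 to 0.13 for *CARS1*, -0.10 to 0.068 for *EPRS1*, -0.74 to 0.063 for *GARS1*, -0.19 to 0.043 for *IARS1*, -0.37 to 0.18 for *MARS1*, -0.87 to 0.30 for *SARS1*, -0.030 to 0.20 for *TARS1*, -0.15 to 1.16 for *WARS1*, -0.49 to 0.31 for *YARS1*, -0.066 to 0.34 for *AARS2*, -0.056 to 0.12 for *CARS2*, -0.23 to 0.086 for *EARS2* and -0.27 to 0.23 for *MARS2*. The difference between the compartments was -0.04 with all libraries and ranged from -0.25 to 0.12 with 1 left out. The cause of these shifts was not tested. *MARS1* and *HARS1* are among the genes that share exon bases with a neighbour, whose part in their counts was not tested.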
